A study of Homo sapiens with 15 samples.

Results

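ATRNL1 (attractin-like 1), its paralogue ATRN (attractin), the ubiquitin ligases MGRN1 and RNF157, and MOSMO, a small membrane protein that acts beside MGRN1, were followed through RNA-seq of human atrial cardiomyocytes in which ATRNL1 had been lowered or raised. These 5 genes were taken by symbol, with no measured value used, from the 58780 named rows of a gene count table. All 5 were among the 24659 genes that passed the filter on low counts. The cells were H7, an established human embryonic stem cell line labelled as genotype wt, and there were 5 groups of 3 libraries. One group received siRNA-1 and another siRNA-2, both against ATRNL1, and the control of both was a scramble siRNA. A further group was transduced with lentivirus for the short ATRNL1 isoform (transcript ENST00000609571.5), packaged in HEK293T cells, and its control was a control lentivirus. Per the labels' protocols, transduced cells were selected with puromycin. All groups had the same atrial differentiation, in which spheroids saw a retinoid, a WNT inhibitor and the Smoothened agonist SAG, and were dissociated at day 17. The sources used here give neither the times of treatment and harvest nor the siRNA sequences.

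Attractin and attractin-like 1 are membrane proteins with a long extracellular part and a short cytoplasmic tail. MGRN1 and RNF157 are RING-type E3 ligases, which pass ubiquitin from an E2 enzyme to a target protein. In mice, loss of Atrn or Mgrn1 alters coat colour, which the melanocortin receptor controls. In mouse cells and embryos, MGRN1 acts with MOSMO to remove Smoothened, the transducer of hedgehog signals, from the cell surface, and mouse embryos without Mgrn1 or Mosmo form abnormal hearts.

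On GRCh38, ATRNL1 (ENSG00000107518) lies at chr10:115093365-115948992 on the plus strand and ATRN (ENSG00000088812) at chr20:3471040-3651122 on the plus strand. MGRN1 (ENSG00000102858) lies at chr16:4616493-4690974 on the plus strand, RNF157 (ENSG00000141576) at chr17:76142453-76240373 on the minus strand, and MOSMO (ENSG00000185716) at chr16:22007638-22087534 on the plus strand. The lentivirus carried an isoform that holds only the front of the protein. The long transcript of ATRNL1 (ENST00000355044.7) had 29 exons and 1379 codons before its stop, and the short one had 8 exons and 467 codons. Their coding sequences were identical over the first 1348 bases, 32.6% of the long one. After chr10:115171292 the short isoform read on into what is an intron for the long isoform, for 56 bases up to a stop codon, whereas the long isoform went on at the next exon, at chr10:115215697. Both ends are shown because a count of the whole gene cannot tell the isoforms, or the vector and the cells' own gene, apart. Lower case marks the last bases that both share and capitals mark what each has alone, 5′ to 3′, from GENCODE release 29 transcripts on GRCh38, plus strand, at chr10:115171248-115171348 for the short isoform and between chr10:115171248 and 115215752, across the intron, for the long one.
Short isoform: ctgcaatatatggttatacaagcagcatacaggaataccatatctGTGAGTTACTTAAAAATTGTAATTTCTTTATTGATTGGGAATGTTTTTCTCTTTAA
Long isoform: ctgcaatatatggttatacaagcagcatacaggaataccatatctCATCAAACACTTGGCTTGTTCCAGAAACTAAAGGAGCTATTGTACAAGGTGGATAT

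**Figure D1:**
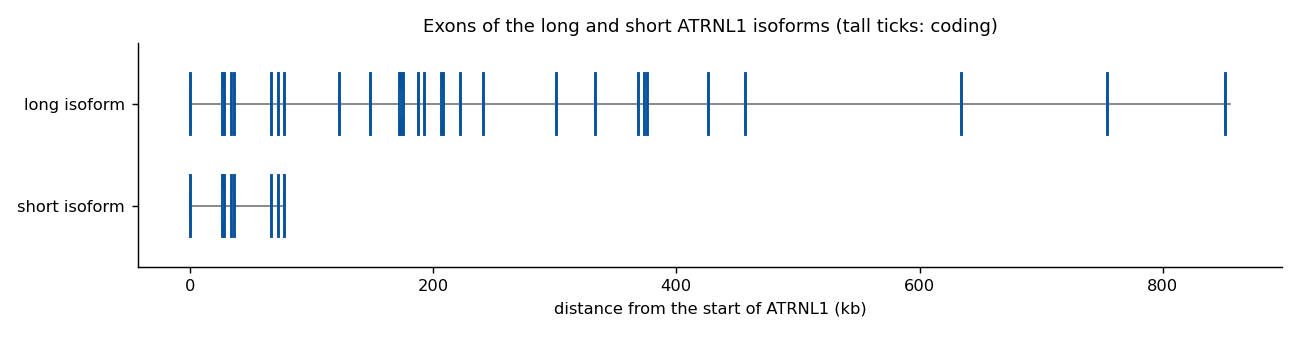
Exons of the long and the short ATRNL1 isoform, each a row, against the distance from the start of the gene in kb; tall ticks are coding exons and the line is the span of the transcript. The 8 exons of the short isoform lie at the front of the span over which the 29 exons of the long isoform are spread.

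The members form paralogue pairs, and the stretches below are shown because they are the longest runs of identical coding bases within each pair. ATRNL1 (long isoform) and ATRN were identical at 68.7% of 3971 aligned coding bases. Their longest shared run had 23 bases, in capitals here, starting at codon 1273 of ATRNL1 and codon 1322 of ATRN, in the cytoplasmic tail. The short isoform ends before it. In all, 9 of the 4272 stretches of 19 bases in the ATRN coding sequence also stood in the long ATRNL1 isoform, and 4 in the short one, where the longest run was 20 bases. Whether either siRNA matched such a stretch was not tested.
ATRNL1, chr10:115727254-115727306, plus strand: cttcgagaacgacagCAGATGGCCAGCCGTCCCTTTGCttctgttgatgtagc
ATRN, chr20:3638834-3638886, plus strand: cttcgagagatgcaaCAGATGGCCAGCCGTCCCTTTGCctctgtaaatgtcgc

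RNF157 and MGRN1 were identical at 69.2% of 1552 aligned coding bases. Their longest shared run had 41 bases, in capitals, starting at codon 303 of RNF157 and codon 304 of MGRN1, in the RING finger, the fold with which such ligases hold the E2 enzyme. Both stretches cross an intron, so the coordinates span more than the bases shown, and the sequences are read on the coding strand (same transcripts and build as above). Within this pair 23 stretches of 19 bases were shared, and reads that lay wholly within such runs could not be assigned to 1 of the pair.
RNF157, chr17:76161638-76161903, minus strand: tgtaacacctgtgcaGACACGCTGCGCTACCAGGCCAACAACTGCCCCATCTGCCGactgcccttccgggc
MGRN1, chr16:4673597-4677472, plus strand: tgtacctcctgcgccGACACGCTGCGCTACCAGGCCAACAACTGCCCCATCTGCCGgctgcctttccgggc

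Libraries held 37078568 to 108663135 counts in named genes, and a member had between 246 counts (ATRNL1, siRNA-2 library 3) and 61300 counts (ATRNL1, ATRNL1 lentivirus library 2) in a library. The labels do not state that libraries of a group were separate cultures, and the p-values therefore cover the spread among these libraries alone, which may be technical. Over 7258 genes of at least 20 CPM (TMM-scaled counts relative to library size), the median SD within a group was 0.14 on the log2 scale with the ATRNL1 lentivirus and 0.05 to 0.07 in the other groups. The fit used below takes a shared estimate of the spread of each gene over all groups. Its standard errors and intervals therefore do not reflect this difference between groups. In 4 groups 1 library lay between the other members of its group for more genes than either of them did (52.3% in siRNA-1, 40.4% in siRNA-2, 51.6% with the ATRNL1 lentivirus and 57.4% with the control lentivirus), and in scramble library 3 did so for 74.4%. In the first 4 groups 1 sample title holds a number that joins those of the other titles. The sources used here do not say what that number means, and whether these libraries are mixes was not tested. Cardiomyocyte markers summed to 32162 to 42918 CPM and 9 atrial markers to 2142 to 3147 CPM. The atrial genes SLN and NR2F1 stayed under 1 CPM in every library, while MYL2, a ventricular gene, ran from 1069 to 4233 CPM. Adjusted p-values below come from the quasi-likelihood test of edgeR, with the Benjamini-Hochberg method over all 24659 genes, a gene was called at an adjusted p under 0.05, and fold changes are on the log2 scale unless a percentage or a fold is given.

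With siRNA-1, 3 of the 5 genes were called, all lower (ATRNL1, ATRN and MOSMO), where 9.61% of all tested genes were called and 3.76% were called lower. With siRNA-2, 3 were called, again all lower (ATRNL1, ATRN and MGRN1), where 18.1% of tested genes were called and 8.48% were called lower. For the mean of both siRNAs 4 were called, all lower, with RNF157 as the exception, where 15.7% of tested genes were called, 8.57% higher and 7.12% lower. Between the siRNAs, ATRNL1, ATRN and MGRN1 were lower with siRNA-2 than with siRNA-1, where 10.1% of tested genes were called, 4.53% higher and 5.6% lower. The siRNA comparisons share the scramble libraries.

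All 5 were called in the ATRNL1 lentivirus group against the control lentivirus, ATRNL1, ATRN and MGRN1 higher and RNF157 and MOSMO lower, where 37.1% of tested genes were called. The control lentivirus itself differed from scramble in 4 of the 5, with ATRNL1, RNF157 and MOSMO higher and MGRN1 lower, where 63.6% of tested genes were called, 30.3% higher and 33.2% lower. In this last comparison the virus, the puromycin and the lack of a transfected siRNA cannot be told apart.

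Read without a model, the libraries of the groups did not overlap for ATRNL1, ATRN and MOSMO with siRNA-1 (28.8% of tested genes did not), and for these and MGRN1 with siRNA-2 (36.7%). Between the siRNAs, ATRNL1, ATRN, MGRN1 and MOSMO did not overlap (33.9%), MOSMO being higher with siRNA-2. The lentiviral groups were apart for all members but MOSMO (42.9%), and the control lentivirus and scramble for all but ATRN (68.5%, with 32.9% higher).

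**Figure D2:**
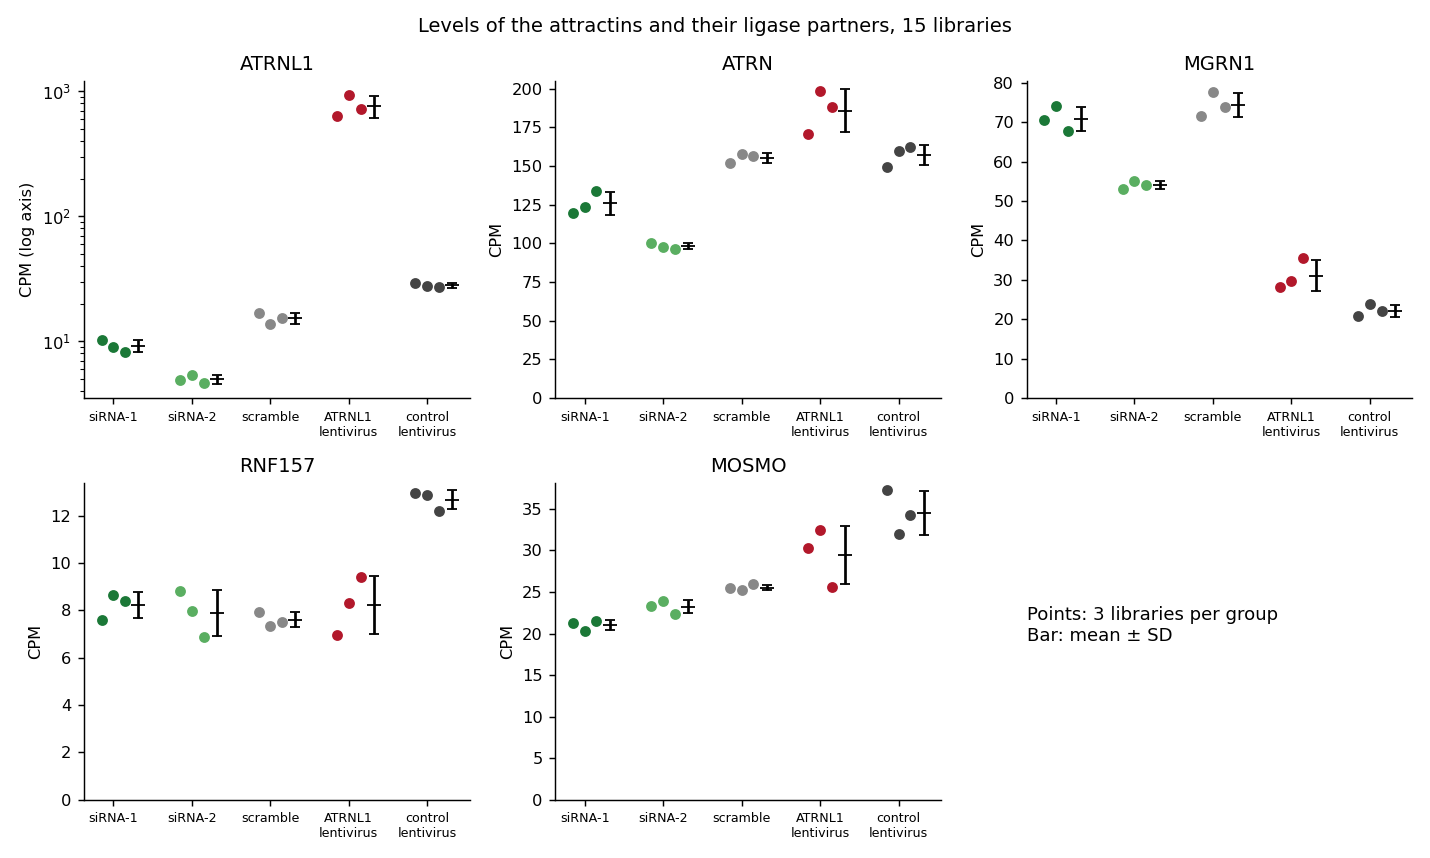
CPM of each of the 5 genes in each library (points, 3 per group) with the group mean ± SD (bars); the axis of ATRNL1 is logarithmic and the others start at 0. The siRNA-2 points of ATRNL1, ATRN and MGRN1 lie below those of siRNA-1 and scramble, and RNF157 stands apart in the control lentivirus libraries, at 12.2 to 12.9 CPM.

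ATRNL1, the targeted gene, was lower in both siRNA groups and higher in the ATRNL1 lentivirus group, as their labels state. It stood at 10.2, 9.02 and 8.26 CPM in the siRNA-1 libraries, at 4.93, 5.41 and 4.61 CPM in the siRNA-2 libraries, and at 16.9, 13.8 and 15.3 CPM in scramble. No library of 1 of these groups overlapped another group. The gene fell by 40.1% with siRNA-1 (95% interval of the change -49.1% to -29.5%; adjusted p = 8.95e-05), which in size exceeded the change of 93.1% of tested genes, and fell by 67.3% with siRNA-2 (-72.4% to -61.3%; adjusted p = 9.57e-10), which exceeded 99.3% of them. Set directly against siRNA-1, siRNA-2 left ATRNL1 lower by a further 45.5% (log2 fold change -0.87, SE 0.12, adjusted p = 2.61e-05). The siRNA-2 libraries were thus the lowest of all 15, at 0.327 of the scramble level.

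The ATRNL1 lentivirus libraries held 636, 927 and 727 CPM of ATRNL1, against 29.2, 27.6 and 27.1 CPM with the control lentivirus. This was a rise of 27.3-fold (95% interval 23.1 to 32.3; log2 fold change 4.77, SE 0.12, adjusted p = 1.28e-19). Less the control mean, the added reads came to 608, 899 and 699 CPM, and ATRNL1 took 0.0609%, 0.0774% and 0.0675% of the libraries' gene counts. Library 2 was the highest of the 3, and the spread of this group (SD 149 CPM around a mean of 763 CPM) was wide beside that of the control lentivirus (28.0 ± 1.11 CPM; SD, n = 3). These reads mix the vector with the cells' own transcripts. The control lentivirus alone was at a higher level than scramble, by 0.87 (SE 0.11, adjusted p = 8.53e-08), and no control lentivirus library overlapped a scramble library.

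An antisense gene, AC016042.1, overlaps ATRNL1 and shares 231 exonic bases with it. It had at most 48 counts in a library, where ATRNL1 had at least 246. AC016042.1 was at 0.228 CPM with the ATRNL1 lentivirus and 0.538 CPM with the control lentivirus, a difference of -1.25 (SE 0.35, adjusted p = 0.00629). In scramble it was at 0.222 CPM, and the control lentivirus was above scramble by 1.24 (SE 0.35, adjusted p = 0.00347). Its siRNA comparisons were not called (0.14 with siRNA-1 and -0.40 with siRNA-2).

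ATRN, the paralogue, was lower with both siRNAs and higher with the ATRNL1 lentivirus. Its levels were 120, 124 and 134 CPM in the siRNA-1 libraries, 100.3, 97.6 and 96.7 CPM in the siRNA-2 libraries, and 152, 158 and 156 CPM in scramble. The groups did not overlap, with siRNA-2 lowest in every library. It fell by 18.96% with siRNA-1 (-26.4% to -10.7%; adjusted p = 0.00391) and fell by 36.8% with siRNA-2 (-42.6% to -30.4%; adjusted p = 1.17e-07). The difference of siRNA-2 from siRNA-1 was itself called (-0.36, SE 0.07, adjusted p = 7.8e-04). Set against scramble library 1 alone, the siRNA-1 value was -0.27 and no longer called (adjusted p = 0.211), and without the 4 libraries outside scramble that most often lay between the others the siRNA-1 value was -0.29 (adjusted p = 0.0947) and the difference between the siRNAs -0.37 (adjusted p = 0.0626).

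In the ATRNL1 lentivirus group ATRN stood at 171, 199 and 188 CPM, against 150, 160 and 162 CPM with the control lentivirus. All 3 libraries lay above all 3 controls, by 18.2% (7.38% to 30.2%; log2 fold change 0.24, SE 0.07, adjusted p = 0.00586). The call ended without the 4 libraries named above, at 0.25 (adjusted p = 0.0837). The control lentivirus libraries overlapped scramble (0.02, 95% interval -0.12 to 0.16, adjusted p = 0.845). That sign depends on the scaling: with library sizes alone the value was -0.18 (adjusted p = 0.00936), where the median of all tested genes moved to -0.26, against -0.06 with TMM, and with upper quartile factors it was -0.03. The overexpression effect minus the mean effect of the siRNAs was 0.72 for ATRN (SE 0.09, adjusted p = 4.95e-07), where 32% of tested genes were called in that contrast, 16.5% higher and 15.5% lower. Of 5 genes over ATRN or within 50 kb of it, 2 were tested. Among these ADAM33 was called higher with siRNA-2 than in scramble (1.93, SE 0.50, adjusted p = 0.00693), at no more than 20 counts in a library.

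Taken per kilobase of joined exons, ATRNL1 made up 6.05% ± 0.914 of the sum of ATRNL1 and ATRN with siRNA-1, 4.28% ± 0.334 with siRNA-2 and 7.99% ± 0.874 in scramble (SD, n = 3 each). The share was 78.1% ± 2.02 with the ATRNL1 lentivirus and 13.6% ± 0.979 with the control lentivirus. No library of a treated group overlapped its control, and each exact two-sided permutation test gave p = 0.1, the smallest that 3 against 3 libraries allow. ATRNL1 is the gene that the siRNAs target and the vector supplies, so these tests are not separate from its changes given above. ATRN supplied most of the summed attractin-family reads per kilobase in each library outside the ATRNL1 lentivirus group, and the siRNA-2 cells were the group lowest in that sum (11.51 to 11.95 CPM per kb, against 19.05 to 19.41 in scramble).

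**Figure D3:**
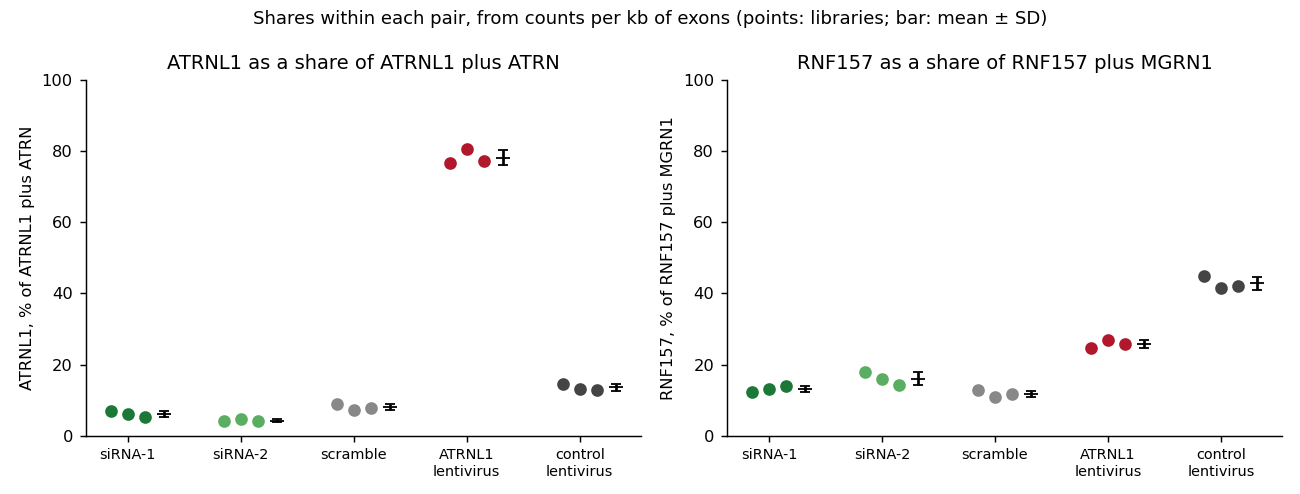
ATRNL1 as a percentage of ATRNL1 plus ATRN (left) and RNF157 as a percentage of RNF157 plus MGRN1 (right), from counts per kb of joined exons, for each library (points) with group mean ± SD (bars). The ATRNL1 share is 78.1% with the ATRNL1 lentivirus, and the RNF157 share is 25.7% there and 42.8% with the control lentivirus.

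MGRN1, the ligase whose loss in mice darkens the coat, was lower with siRNA-2 but not measurably with siRNA-1. It had 70.5, 74.0 and 67.8 CPM in siRNA-1 libraries, 53.0, 55.0 and 54.0 CPM in siRNA-2 libraries, and 71.5, 77.6 and 73.8 CPM in scramble. The siRNA-2 libraries lay below every other siRNA library, and the siRNA-1 libraries overlapped scramble. With siRNA-2 the gene fell by 27.3% (-34.8% to -19.01%; adjusted p = 7.64e-05). With siRNA-1 the change was -4.75%, with a 95% interval of -14.5% to 6.11% (adjusted p = 0.675), which still allows a fall smaller than that of siRNA-2. The direct comparison of siRNA-2 with siRNA-1 was called (-0.39, SE 0.08, adjusted p = 0.00109).

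MGRN1 levels were 28.1, 29.7 and 35.4 CPM with the ATRNL1 lentivirus, against 20.8, 23.8 and 22.0 CPM with the control lentivirus. The groups did not overlap, and the gene rose by 39.6% (24.8% to 56.2%; log2 fold change 0.48, SE 0.08, adjusted p = 2.03e-05). Both lentiviral groups, at up to 35.4 CPM, lay under every library of the siRNA groups, at 53.0 CPM or more. The control lentivirus was 70.1% lower than scramble in the fitted value (log2 fold change -1.74, SE 0.08, adjusted p = 7.24e-16), a change larger in size than that of 88.3% of tested genes. Overexpression minus mean knockdown gave 0.75 (SE 0.10, adjusted p = 2.34e-06).

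Of 10 genes over MGRN1 or within 50 kb of it on chromosome 16, 7 were tested. With the control lentivirus 6 of these 7 were called lower than in scramble, where 33.2% of all tested genes were called lower, among them NUDT16L1 (-1.84, SE 0.09, adjusted p = 3.12e-15) and UBALD1 (-1.90, SE 0.12, adjusted p = 5.43e-13). In the ATRNL1 lentivirus group NUDT16L1 (0.61, SE 0.09) and UBALD1 (0.47, SE 0.13) were the 2 of the 7 called against its control, both higher, where 19.1% of all tested genes were called higher. NUDT16L1 was at -0.24 with siRNA-1 and -0.07 with siRNA-2 and was called in neither. The antisense gene AC023830.1 lies within MGRN1 with no exonic base shared and had at most 64 counts. Calls of neighbours in control lentivirus against scramble were not confined to MGRN1. Of 4 tested neighbours of MOSMO, 3 were called lower there (UQCRC2, PDZD9 and VWA3A). Of 4 tested neighbours of RNF157, EXOC7 and QRICH2 were called lower and UBALD2 higher. MOSMO and RNF157 themselves were higher in that comparison.

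RNF157, the paralogue of MGRN1, was called in no siRNA comparison. It had 7.59, 8.63 and 8.40 CPM in siRNA-1 libraries, 8.83, 7.99 and 6.89 CPM in siRNA-2 libraries, and 7.95, 7.34 and 7.53 CPM in scramble. The 3 groups overlapped. The change was 7.94% with siRNA-1 (-7.34% to 25.7%; adjusted p = 0.631) and 4.43% with siRNA-2 (-10.1% to 21.3%; adjusted p = 0.764), so that a fall of the size seen for ATRN with siRNA-2 lay outside both intervals.

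RNF157 levels in the ATRNL1 lentivirus libraries were 6.98, 8.30 and 9.39 CPM, against 12.9, 12.9 and 12.2 CPM with the control lentivirus. It fell by 35.6% (-44.3% to -25.4%; log2 fold change -0.63, SE 0.10, adjusted p = 1.87e-05). The control lentivirus libraries were the ones that stood apart from the other 12, and they were above scramble by 0.74 (SE 0.10, adjusted p = 6.68e-07). RNF157 was the member whose overexpression effect minus mean knockdown effect was negative and called (-0.72, SE 0.14, adjusted p = 1.93e-04). Its antisense neighbour RNF157-AS1 shares 360 exonic bases with it and had at most 23 counts in a library.

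Between the ligases, RNF157 supplied 13.2% ± 0.806 of the summed reads per kilobase with siRNA-1, 16.1% ± 1.81 with siRNA-2 and 11.8% ± 0.845 in scramble (SD, n = 3 each). The siRNA-2 libraries did not overlap scramble (exact two-sided permutation p = 0.1, the smallest possible), and the siRNA-1 libraries did (exact p = 0.2). The share was 25.7% ± 1.12 with the ATRNL1 lentivirus and 42.8% ± 1.86 with the control lentivirus (exact p = 0.1). MGRN1 was the more abundant ligase transcript per kilobase in each library of all 5 groups, though least so with the control lentivirus.

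**Figure D4:**
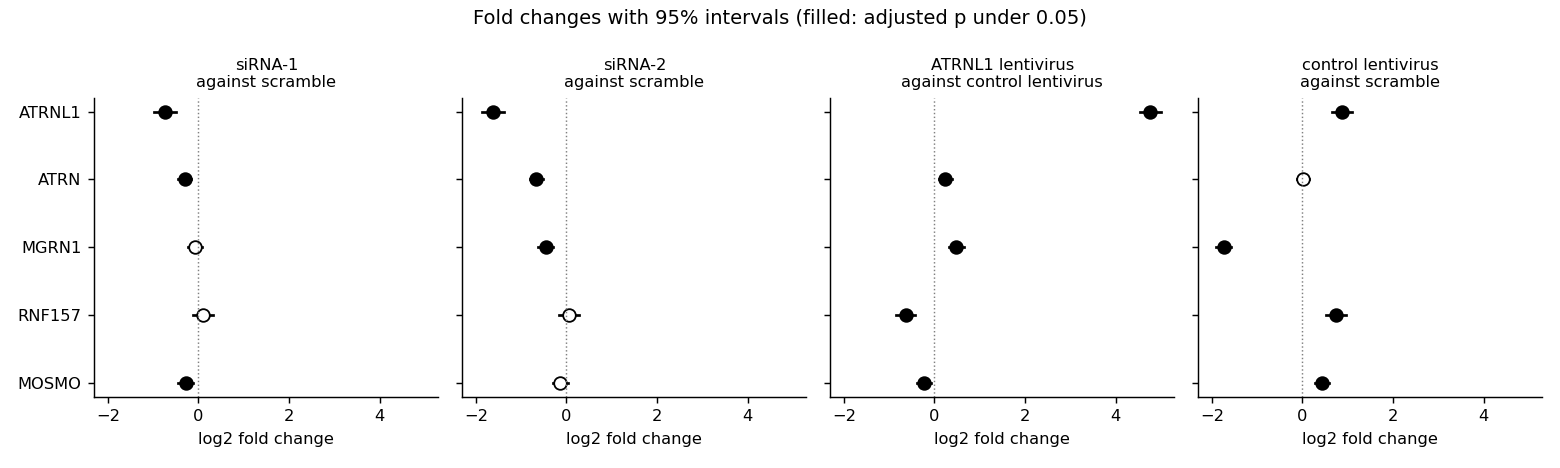
Log2 fold change of each of the 5 genes (rows) with its 95% interval, in 4 comparisons (panels); filled points have an adjusted p under 0.05. ATRN and MGRN1 lie on the side of ATRNL1 in the siRNA-2 and ATRNL1 lentivirus panels. RNF157 and MOSMO lie on the other side in the ATRNL1 lentivirus panel, and RNF157, with open points, does so in both siRNA panels too.

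MOSMO, which in mouse cells joins MGRN1 in lowering Smoothened, had small changes, of at most 0.43 in size in the fitted values, and its calls were the least stable. It had 21.2, 20.3 and 21.6 CPM in siRNA-1 libraries, 23.3, 24.0 and 22.4 CPM in siRNA-2 libraries, and 25.5, 25.2 and 25.9 CPM in scramble. Every siRNA library lay below every scramble library, as 14.1% of tested genes did for siRNA-1 and 18% did for siRNA-2. The fitted change was -17.6% with siRNA-1 (-26.5% to -7.52%; adjusted p = 0.0266) and -9.07% with siRNA-2 (-18.8% to 1.84%; adjusted p = 0.268). The mean over both siRNAs was called (-0.21, SE 0.07, adjusted p = 0.0395), but leaving out any 1 of the 9 libraries ended that call, at -0.22 to -0.19. The siRNA-1 call outlasted the removal of 1 library in 1 of 6 cases only, that of scramble library 1 (values -0.29 to -0.25).

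MOSMO stood at 30.2, 32.4 and 25.6 CPM with the ATRNL1 lentivirus, against 37.3, 31.97 and 34.2 CPM with the control lentivirus. The libraries overlapped, and the call (-0.23, SE 0.08, adjusted p = 0.0242) ended without ATRNL1 lentivirus library 3 (-0.13, adjusted p = 0.228) and without control lentivirus library 1 (-0.16, adjusted p = 0.18) or library 3 (-0.22, adjusted p = 0.066). The control lentivirus was above scramble by 0.43 (SE 0.08, adjusted p = 3.07e-05), with no overlap. Overexpression minus knockdown gave -0.02 (95% interval -0.23 to 0.20, adjusted p = 0.918), and 0.02 without the 4 libraries named above. The antisense genes AC009019.1 and AC092119.3 share 438 and 59 exonic bases with MOSMO, and neither had more than 24 counts in a library.

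Levels of the members per kilobase of joined exons kept ATRN at the top in the groups without the ATRNL1 vector. With siRNA-1 the order was ATRN at 14.4 CPM per kb, MGRN1 at 6.93, MOSMO at 3.44, RNF157 at 1.05 and ATRNL1 at 0.921, and the last 2 overlapped. With siRNA-2 it was ATRN at 11.2, MGRN1 at 5.29, MOSMO at 3.79, RNF157 at 1.01 and ATRNL1 at 0.501, with no overlap between neighbours. In scramble ATRN stood at 17.7 CPM per kb, MGRN1 at 7.27, MOSMO at 4.17, ATRNL1 at 1.54 and RNF157 at 0.9745, again without overlap. ATRNL1 thus ranked above RNF157 in scramble and under it with siRNA-2.

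With the ATRNL1 lentivirus, ATRNL1 read 76.7 CPM per kb of the joined exons of the whole gene, a value that mixes vector and gene, ATRN 21.2, MOSMO 4.81, MGRN1 3.04 and RNF157 1.05. With the control lentivirus ATRN stood at 18.0, MOSMO at 5.64, ATRNL1 at 2.81, MGRN1 at 2.17 and RNF157 at 1.62 CPM per kb. The vector carries the short isoform, and per kb of its 1404 coding bases the ATRNL1 reads added over the control mean came to 433, 640.2 and 498 CPM, so that the ATRNL1 level and its share of the pair in this group depend on the length used. MOSMO was above MGRN1 in both lentiviral groups and under it in the 3 siRNA groups. Where the length of the longest transcript was used in place of joined exons, MGRN1 with the control lentivirus came to 3.45 ± 0.235 CPM per kb and ATRNL1 to 3.30 ± 0.131 (SD, n = 3), so that the order of these neighbours depends on the length used.

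Markers of other cell types moved with some of these comparisons, and their part in the members' values was not tested. The summed level of 4 ventricular markers was 4905 to 5629 CPM with the ATRNL1 lentivirus, against 2978 to 3485 CPM with the control lentivirus, and it was 2712 to 3421 CPM in siRNA-1 libraries, 3495 to 3578 CPM in siRNA-2 libraries and 2142 to 2898 CPM in scramble. In the lentiviral groups most of this sum was MYL2, which averaged 3806 CPM with the ATRNL1 lentivirus and 2069 CPM with the control lentivirus. MYL3 averaged 1237 and 1094 CPM in these groups and HEY2 84.4 and 46.8 CPM. IRX4 averaged 37.6 and 31.5 CPM there, against 81.2 CPM in scramble. The 9 atrial markers summed to 2476 to 2595 CPM with the ATRNL1 lentivirus, against 3004 to 3147 CPM with the control lentivirus. Most of that was MYL7, at means of 2023 and 2590 CPM. The 5 smooth muscle and pericyte markers summed to 745 to 820 CPM with the ATRNL1 lentivirus and 894 to 910 CPM with the control lentivirus, and to 369 to 519 CPM in siRNA-1 libraries, 491 to 559 CPM in siRNA-2 libraries and 306 to 460 CPM in scramble, with PDGFRB under 1 CPM in every library. The 6 fibroblast markers summed to 152 to 165 CPM in siRNA-1 libraries, 131 to 140 CPM in siRNA-2 libraries and 89.8 to 135 CPM in scramble, with DCN under 1 CPM in every library. Mitochondrial genes took 4.26% to 5.31% of the counts in siRNA-2 libraries, against 6.32% to 6.79% in scramble, with no overlap, and 5.32% to 7.79% in siRNA-1 libraries, and the part of this share was not tested either. In bulk RNA, fewer cells of a type and less RNA per cell cannot be told apart.

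The genes whose group means were most like those of ATRN, by the root mean square difference of centred log2 CPM over the 5 groups, were GPRIN3 (0.029), LCLAT1 (0.077), DLAT (0.082), MOSPD2 (0.083) and PCYOX1 (0.088). The median over 9347 candidate genes was 0.354. GPRIN3 means were 215 CPM (siRNA-1), 175 CPM (siRNA-2), 270.3 CPM (scramble), 327 CPM with the ATRNL1 lentivirus and 265 CPM with the control lentivirus. For ATRNL1, over the 4 groups without its vector, the nearest were IKBIP (0.277), MORC4 (0.282), SLC28A3 (0.333), RAD18 (0.334) and FERMT1 (0.339), against a median of 0.873. IKBIP means were 12.5 CPM (siRNA-1), 7.41 CPM (siRNA-2), 14.8 CPM (scramble) and 27.6 CPM with the control lentivirus. The nearest genes of ATRNL1 were thus farther from it than those of ATRN were from ATRN, over 1 group fewer.

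A wider set of related genes was read from 3 lists, and whether each gene works with these members was not tested. Of 7 genes listed as E2 enzymes and ligase partners, all tested, 1 rose and 0 fell with siRNA-1 (median log2 fold change 0.09, against -0.01 over all tested genes), where 5.85% of all tested genes rose and 3.76% fell. With siRNA-2, 2 rose and 1 fell (median -0.10, against 0.00), where 9.64% of all tested genes rose and 8.48% fell. NEDD4, an E3 ligase of the HECT class, rose with siRNA-1 (0.41, SE 0.07, adjusted p = 4e-04) and with siRNA-2 (0.43, SE 0.07, adjusted p = 1.06e-04). UBE2D2, an E2 enzyme that serves many RING ligases, fell with siRNA-2 to 73.5 CPM, against 114 CPM in scramble (-0.64, SE 0.08, adjusted p = 2.76e-06), whereas it was at 121 CPM and not called with siRNA-1 (0.09). UBE2D1, a related E2 enzyme, rose with siRNA-2 (0.33, SE 0.10, adjusted p = 0.0241).

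In the ATRNL1 lentivirus group 1 of these 7 genes rose and 2 fell (median 0.01, against 0.00 over all tested genes), where 19.1% of all tested genes rose and 18% fell. NEDD4 averaged 30.7 ± 3.30 CPM there and 62.4 ± 0.381 CPM with the control lentivirus (SD, n = 3 each), a fall of 1.02 (SE 0.07, adjusted p = 1.86e-11). It stood at 20.0 CPM in scramble, so that the control lentivirus libraries were again the highest. UBE2D1 rose by 0.25 (SE 0.10, adjusted p = 0.0484), with a wide spread among the ATRNL1 lentivirus libraries. It averaged 44.2 ± 9.34 CPM with the ATRNL1 lentivirus and 37.1 ± 1.85 CPM with the control lentivirus (SD, n = 3 each). APBB1, an adaptor that RNF157 is known to ubiquitinate in rat neurons, fell by 0.19 (SE 0.07, adjusted p = 0.0282). For NEDD4, overexpression minus mean knockdown gave -1.44 (SE 0.10, adjusted p = 2.33e-11).

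Of 21 genes that make, receive or transduce hedgehog signals, 18 were tested. The ligand genes SHH, IHH and DHH did not pass the filter, at no more than 0.11 CPM in any library. With siRNA-1, 3 of the 18 rose and 0 fell, where 5.85% of tested genes rose, and the median of the 18 was 0.22, against -0.01 over all tested genes. GPR161, a ciliary receptor that holds hedgehog signalling down, rose by 0.60 (SE 0.09, adjusted p = 3.92e-05). GLI3, a transcription factor of the pathway that acts largely as a repressor, rose by 0.40 (SE 0.09, adjusted p = 0.00295). HHAT, the enzyme that adds palmitate to hedgehog ligands, rose by 0.32 (SE 0.09, adjusted p = 0.0235). HHAT had the opposite sign with siRNA-2, where it was not called (-0.24, SE 0.09, adjusted p = 0.0714). It was called lower with siRNA-2 than with siRNA-1 (-0.56, SE 0.09, adjusted p = 1.57e-04).

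With siRNA-2, 8 of the 18 rose and 0 fell, where 9.64% of tested genes rose, and their median was 0.34, against 0.00 over all tested genes. The co-receptors BOC (1.21, SE 0.19), CDON (0.31, SE 0.10) and GAS1 (0.37, SE 0.12) were among them, BOC at no more than 2.49 CPM. With siRNA-1 these co-receptors were not called (BOC 0.55, CDON -0.14 and GAS1 -0.03). Each was called higher with siRNA-2 than with siRNA-1 (BOC 0.66, CDON 0.45 and GAS1 0.39), where 4.53% of tested genes were called higher. SMO, which encodes Smoothened, averaged 26.9 ± 1.08 CPM with siRNA-2 and 20.5 ± 0.979 CPM in scramble (SD, n = 3 each), a rise of 0.39 (SE 0.08, adjusted p = 4.44e-04). With siRNA-1 it averaged 23.6 CPM (0.21, 95% interval 0.05 to 0.36, adjusted p = 0.0954). GPR161 (0.71), GLI3 (0.52), EVC (0.43) and GLI2 (0.43) were the other 4 that rose.

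The target genes by which hedgehog activity is usually read did not pass the test in these comparisons. PTCH1, both receptor and target, had means of 10.4 CPM (siRNA-1), 9.75 CPM (siRNA-2) and 10.2 CPM (scramble) (0.03, 95% interval -0.18 to 0.24, with siRNA-1 and -0.06, -0.26 to 0.14, with siRNA-2). GLI1 stood at no more than 0.60 CPM in any library, and its intervals reached from -0.08 to 1.24 with siRNA-1 and from -0.24 to 1.05 with siRNA-2, so that both intervals include 0 and a change of 1.

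Of the 18 hedgehog genes 5 rose and 5 fell with the ATRNL1 lentivirus, where 19.1% of tested genes rose and 18% fell, and the median was 0.07, against 0.00 over all tested genes. The co-receptors CDON (0.61, SE 0.10), GAS1 (0.58, SE 0.12) and BOC (0.52, SE 0.20) rose, as did GRK2, a kinase of Smoothened (0.42, SE 0.08), and HHAT (0.24, SE 0.09). With library sizes alone 3 were called higher and 5 lower. The transcription factors GLI2 (-1.18, SE 0.15) and GLI3 (-0.72, SE 0.08) fell, with EVC2 (-0.79, SE 0.15), GPR161 (-0.50, SE 0.08) and KIF7 (-0.42, SE 0.14). GPR161 averaged 24.2 CPM with the ATRNL1 lentivirus and 34.0 CPM with the control lentivirus, and GLI3 26.1 and 43.1 CPM in the same groups. Overexpression minus mean knockdown gave -1.15 for GPR161 (SE 0.11, adjusted p = 1.47e-08) and -1.18 for GLI3 (SE 0.11, adjusted p = 7.62e-09). Both were also higher with the control lentivirus than in scramble, by 0.94 and 1.28, and SMO was lower there (-1.16, SE 0.08, adjusted p = 1.67e-12).

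**Figure D5:**
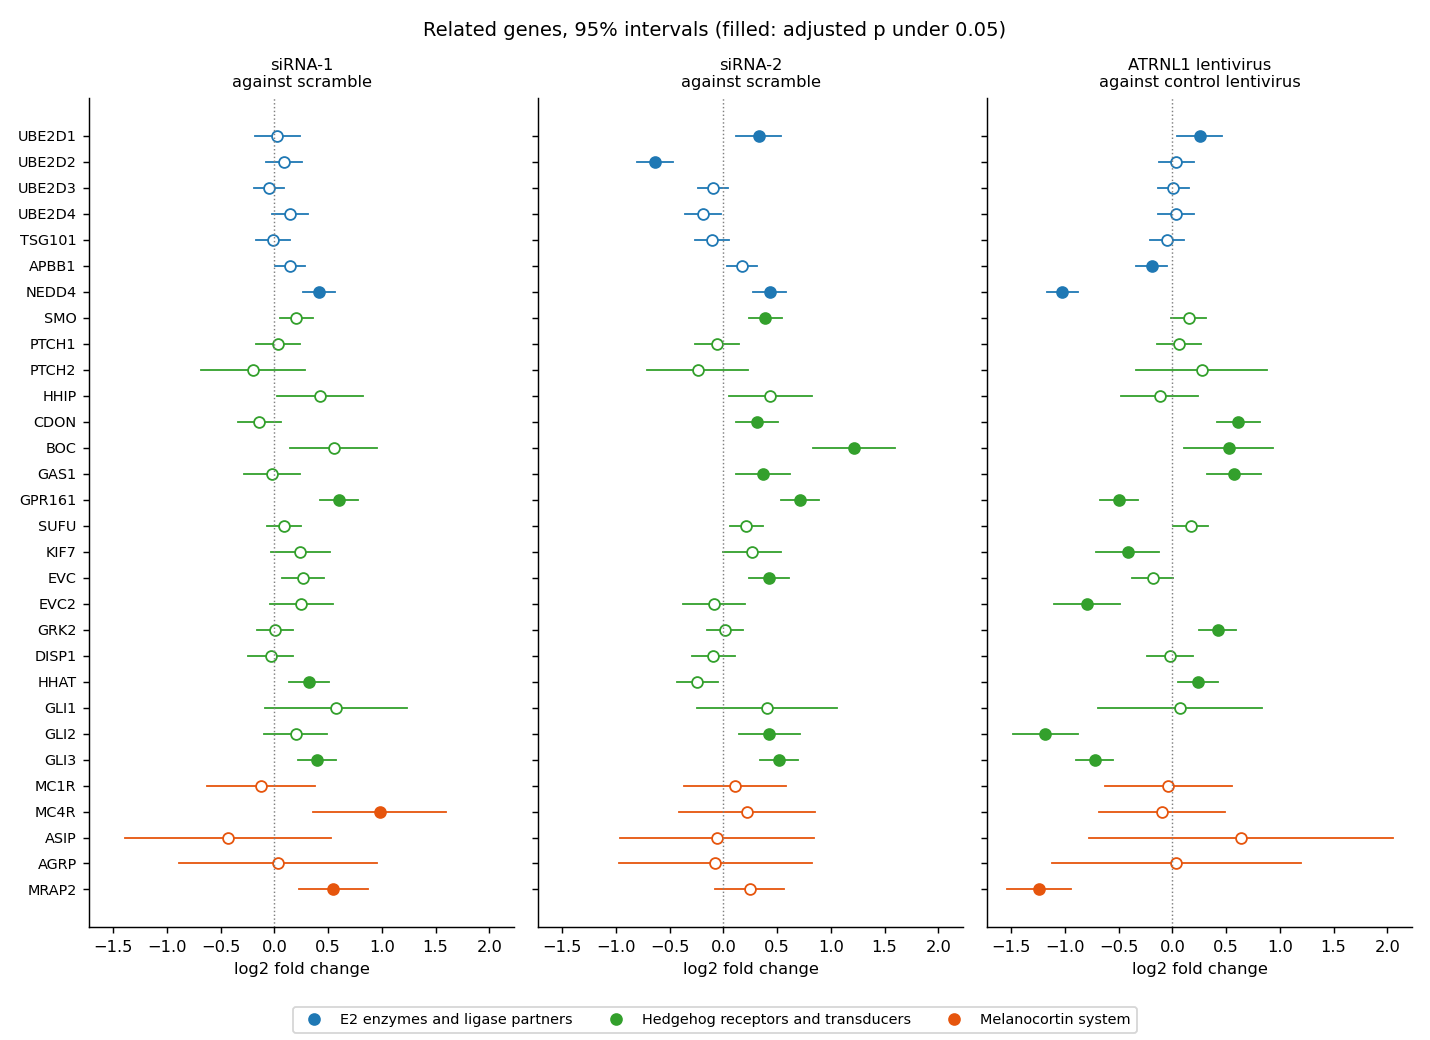
Log2 fold change with 95% interval of the tested genes of the 3 lists (rows, coloured by list) with siRNA-1, siRNA-2 and the ATRNL1 lentivirus, each against its control (panels); filled points have an adjusted p under 0.05. GPR161, GLI3 and NEDD4, the genes filled in every panel, lie right of 0 in both siRNA panels and left of 0 in the ATRNL1 lentivirus panel. For each of them the control lentivirus was above scramble (0.94, 1.28 and 1.64). Other genes, such as GLI2, KIF7 and MRAP2, lie on the same sides without being filled in every panel. BOC lies right of 0 in every panel, and PTCH1 is open in all of them.

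Of 10 genes of the melanocortin system, the setting in which attractin and MGRN1 (mahogunin) were first studied in mice, 5 were tested and none of these exceeded 5.79 CPM in a library. With siRNA-1, MC4R, a melanocortin receptor, rose at 0.691 ± 0.195 CPM, against 0.353 ± 0.0918 CPM in scramble (SD, n = 3 each), by 0.98 (SE 0.30, adjusted p = 0.0381), and MRAP2, its accessory protein, rose by 0.55 (SE 0.16, adjusted p = 0.0253). With siRNA-2 neither was called (0.22 for MC4R and 0.25 for MRAP2). MRAP2 was lower with the ATRNL1 lentivirus, at 2.38 CPM, than with the control lentivirus, at 5.58 CPM (-1.24, SE 0.15, adjusted p = 1.72e-07). It stood at 2.07 CPM in scramble, so that the control lentivirus was again the highest group, above scramble by 1.45 (SE 0.15, adjusted p = 3.65e-09). ASIP and AGRP, the antagonists of these receptors, stayed under 1 CPM in all libraries.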

How the data were processed

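Gene counts of 15 RNA-seq libraries were deposited by the authors as a table of raw counts per gene. The build GRCh38 (hg38), the aligner STAR (2.7.9a) and DESeq2 (1.30.1) are named per the submitters' processing notes. The counter, its strand setting and any filter are not stated there, so reads of a gene and of an overlapping antisense gene cannot be told apart. The labels name polyA RNA, whereas their protocol describes depletion of ribosomal RNA. Column names give the group and a running number but not the sample, so library numbers follow the columns.

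Rows without a gene name (649 of 59429, with 0.00157% to 0.00437% of a library's counts) were left out. The 24659 genes kept by filterByExpr were fitted with edgeR 4.0.16 (quasi-likelihood test, TMM factors) in R 4.3.3, with 5 group means over all 15 libraries. The common biological coefficient of variation was 8.24%, with 14.5 prior degrees of freedom. P-values were adjusted by the Benjamini-Hochberg method over all tested genes, at a threshold of 0.05. Tested on simulated data for siRNA-1 against scramble over 24659 genes, this fit recovered 77% of 100 genes changed by 0.5 and 99% of 100 changed by 1 on the log2 scale, and 8.33% of calls were false. Shares of a paralogue pair were compared by exact permutation tests.

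The members, lists and tests were chosen with earlier results of these data known. The named genes were the members, called genes of the 3 lists (1 listed gene is not reported here), genes over a member or within 50 kb of it, and the 5 genes of at least 10 CPM nearest in pattern to ATRN and ATRNL1. Sequences and lengths are from GENCODE release 29 on GRCh38, aligned with Biopython 1.88. No pair of libraries of a group agreed within sampling noise (chi-square per degree of freedom at least 4.50). Deviations of same-numbered libraries correlated from -0.26 to 0.40, not all above 0.1, so the numbers were not taken to pair libraries. Alternatives were library sizes alone or upper quartile factors, no filter, DESeq2 1.42.0, limma-voom (limma 3.58.1), only the groups compared, scramble library 1 as sole control, a replicate block, other gene lengths, leaving out each library and, chosen after seeing the data, leaving out the 4 libraries outside scramble that most often lay between the others of their group (scramble library 3, which did so too, was kept).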

Additional observations from a re-analysis of the deposited data

How the results depend on the processing

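ATRNL1 kept its direction and its call in each comparison under every alternative, and so did RNF157 and MGRN1 in the lentiviral comparison. MOSMO was the least stable member. With library sizes alone, its mean siRNA value was -0.17 and no longer called, RNF157 between the siRNAs turned to 0.024, and ATRN in control lentivirus against scramble turned to -0.18. With upper quartile factors that last value was -0.027. Without the filter MOSMO with the ATRNL1 lentivirus was -0.21 and not called, and -0.22 with only the groups compared, where 4914 genes were called between the siRNAs. Limma-voom called 7326 genes with siRNA-1, 9994 with siRNA-2, 10309 for their mean and 5138 between them, and called MOSMO with siRNA-2 (-0.15).

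With scramble library 1 as sole control, the calls ended of ATRN (-0.27) and MOSMO (-0.28) with siRNA-1, and of MGRN1 (-0.22) and MOSMO (-0.21) for the siRNA mean. RNF157 with siRNA-2 turned to -0.014, and 568 genes were called with siRNA-1, 1803 with siRNA-2, 1000 for the mean and 4886 for overexpression minus knockdown. Without the 4 libraries outside scramble that most often lay between the others (scramble library 3 was kept), calls ended of ATRN (-0.29) and MOSMO (-0.25) with siRNA-1, MOSMO for the mean (-0.21), ATRN between the siRNAs (-0.37), and ATRN (0.25) and MOSMO (-0.19) with the ATRNL1 lentivirus, and MOSMO for overexpression minus knockdown turned to 0.018. Genes called were then 1000 with siRNA-1, 2417 with siRNA-2, 2155 for the mean, 673 between the siRNAs, 5895 with the ATRNL1 lentivirus and 5167 for overexpression minus knockdown. Fewer libraries entered both fits.

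Leaving out 1 library gave MOSMO -0.29 to -0.25 with siRNA-1, -0.22 to -0.19 for the mean, -0.29 to -0.13 with the ATRNL1 lentivirus and -0.088 to 0.079 for overexpression minus knockdown. RNF157 ran from -0.14 to 0.030 between the siRNAs and from -0.025 to 0.15 with siRNA-2, and ATRN from -0.027 to 0.036 in control lentivirus against scramble. Genes called ran from 1421 to 2984 with siRNA-1, 2311 to 4104 for the mean and 1432 to 1700 between the siRNAs. The cause of these changes was not tested.

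The replicate block changed no member's call. With it ATRNL1 was at -0.74 with siRNA-1, -1.62 with siRNA-2 and 4.77 with the ATRNL1 lentivirus, and 2336, 4422 and 9065 genes were called in these comparisons. Library sizes alone moved the split of calls to 3491 higher and 1486 lower with siRNA-2 (2378 and 2092 with TMM), 2705 and 1428 for the siRNA mean (2113 and 1755), 2055 and 1045 between the siRNAs (1117 and 1382) and 5790 and 10045 for control lentivirus against scramble (7480 and 8195). RNF157, at 334 to 1271 counts a library, allowed changes from -10.1% to 25.7% with the siRNAs.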
